A study of Mus musculus with 3 samples.

Results

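Accessibility was examined at 7 genes of limb identity and limb patterning: the T-box genes Tbx5, Tbx4, Tbx2, Tbx3, Tbx15 and Tbx18, and the homeobox gene Pitx1. All called peaks that overlapped one of these genes or the 50 kb on either side were taken, which gave 423 of the 506515 peaks in the 3 lists, namely 149 for embryonic day (E) 12.5, 108 for E14.5 and 166 for E16.5. Merging those that overlapped between libraries gave 194 open chromatin regions (OCRs) at these loci, of which 68 held a peak in every library and are called shared.

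Tbx5 starts forelimb outgrowth, where it is known to switch on Fgf10, and Pitx1 and Tbx4 have the matching role in the hindlimb, with Pitx1 acting upstream of Tbx4. Tbx2 and Tbx3 are T-box repressors that pattern the limb along its anterior-posterior axis, Tbx15 is needed for normal limb skeleton and for the dorsal-ventral pattern of the skin, and Tbx18 is a marker of several mesenchymal progenitor fields. T-box factors bind DNA through a shared domain that reads the core letters AGGTGTGA.

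The nuclei came from tdTomato+ mesenchymal progenitors (MPs) of C57BL/6J embryos of the genotype Hic1CreERT2/CreERT2; Rosa26LSLtdTomato/tdTomato, in which the Hic1 locus drives a tamoxifen-dependent Cre that switches on a red reporter. All dams had been given 7.5 mg of tamoxifen in 300 uL of sunflower oil at embryonic day 10, so every library held the same alleles and the same treatment. There was 1 droplet-based single-nucleus ATAC-seq library per stage (E12.5, E14.5, E16.5), from pooled forelimbs at the first 2 stages and from an elbow segment (distal stylopod and proximal zeugopod) at E16.5. No hindlimb was sampled, so "hindlimb gene" describes what a gene is known for, not where it was measured. With 1 library per stage no test was possible, and stage, segment, digestion (Dispase at E12.5, other enzymes later) and library cannot be told apart. Intervals below are 95% intervals for counting error only.

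The libraries held 8294, 20023 and 14048 nuclei and from 87048167 to 413425059 cut sites, with medians of 6003.5, 8575 and 26694 per nucleus. From 151 to 401 barcodes were common to a pair of libraries. Levels are given as counts per 1000000 counts in shared autosomal OCRs (CPM). Promoters of the limb mesenchyme markers Prrx1, Twist1, Pdgfra, Pdgfrb and Hic1 were called in every library, at 51.0 to 156 CPM. Of the 4 blood markers, Ptprc, Itgam and Hba-a1 had no promoter peak in any library, while Cd68 had one in each, at 2.79 to 48.8 CPM. Of the endothelial markers, Pecam1, Cdh5 and Tie1 did not exceed 6.82 CPM and Kdr had 26.1 to 40.0. The epithelial markers Krt5 and Krt14 did not exceed 5.6 CPM, with 10.2 to 21.7 for Epcam and Cdh1. Of the myogenic markers, Pax7 had 6.69 to 14.1 CPM, Myod1 15.6 CPM at E12.5 and no promoter peak later, and Myf5 and Myog at most 1.39 CPM. The Schwann marker Foxd3 had 10.7 to 32.8, and the part that other cell types played in the values below was not tested.

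The 6 OCRs that carry the results below, and a pair of promoters, are shown first, as 300-base stretches at the centre of the E16.5 peak on the plus strand of GRCm38 (mm10). Letters in capitals mark matches, on either strand, to T-box (AGGTGTGA), PITX (TAATCC), AP-1 (TGANTCA), SOX (AACAAT), TCF/LEF (CTTTGAT), RUNX (TGTGGT) or HOX (TTTATGG) letters. A stretch with no capitals held none of them. The first 3 lie downstream of the Tbx5 start and were higher, or called for the first time, in the libraries after E12.5. The OCR at +20.3 kb as a whole overlaps an exon of Tbx5, while its printed centre lies in an intron.
Tbx5 +20.3 kb, intron, chr5:119852866-119853165: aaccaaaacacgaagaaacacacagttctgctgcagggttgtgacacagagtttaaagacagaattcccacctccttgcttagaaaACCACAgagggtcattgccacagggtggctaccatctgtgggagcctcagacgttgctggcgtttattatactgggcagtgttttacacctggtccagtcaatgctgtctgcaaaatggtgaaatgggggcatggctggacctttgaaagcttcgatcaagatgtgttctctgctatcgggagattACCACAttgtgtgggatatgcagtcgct
Tbx5 +35 kb, intron, chr5:119867490-119867789: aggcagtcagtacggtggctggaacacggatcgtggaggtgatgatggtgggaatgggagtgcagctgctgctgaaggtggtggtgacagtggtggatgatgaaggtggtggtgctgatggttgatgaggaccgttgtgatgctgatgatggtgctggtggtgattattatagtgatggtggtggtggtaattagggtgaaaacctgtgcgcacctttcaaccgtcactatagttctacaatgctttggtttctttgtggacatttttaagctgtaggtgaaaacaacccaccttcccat
Tbx5 +84.2 kb, exon of the non-coding gene Gm43269, chr5:119916754-119917053: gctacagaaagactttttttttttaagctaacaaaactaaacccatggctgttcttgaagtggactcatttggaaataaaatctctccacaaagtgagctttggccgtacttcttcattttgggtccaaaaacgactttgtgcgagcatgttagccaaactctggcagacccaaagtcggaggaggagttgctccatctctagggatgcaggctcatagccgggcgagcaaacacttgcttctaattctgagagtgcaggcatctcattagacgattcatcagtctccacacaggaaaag

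The next 3 were the OCR of Pitx1 with the highest mean level outside its promoter, in an intron of Gm47071, and a pair from Tbx15 that stood apart in different nuclei at E16.5, the first in an intron and the second intergenic.
Pitx1 -19.8 kb, chr13:55855865-55856164: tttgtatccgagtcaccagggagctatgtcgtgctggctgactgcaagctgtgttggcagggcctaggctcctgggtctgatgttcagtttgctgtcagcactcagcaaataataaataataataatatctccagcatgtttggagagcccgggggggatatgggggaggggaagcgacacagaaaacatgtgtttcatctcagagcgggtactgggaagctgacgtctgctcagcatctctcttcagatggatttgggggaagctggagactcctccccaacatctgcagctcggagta
Tbx15 +52.3 kb, chr3:99292492-99292791: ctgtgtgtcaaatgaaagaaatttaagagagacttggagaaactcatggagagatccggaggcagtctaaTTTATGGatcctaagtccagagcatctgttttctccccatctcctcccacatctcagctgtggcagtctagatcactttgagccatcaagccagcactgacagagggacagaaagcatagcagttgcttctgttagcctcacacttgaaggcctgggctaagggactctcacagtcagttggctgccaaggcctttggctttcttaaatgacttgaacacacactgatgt
Tbx15 +136.8 kb, chr3:99377079-99377378: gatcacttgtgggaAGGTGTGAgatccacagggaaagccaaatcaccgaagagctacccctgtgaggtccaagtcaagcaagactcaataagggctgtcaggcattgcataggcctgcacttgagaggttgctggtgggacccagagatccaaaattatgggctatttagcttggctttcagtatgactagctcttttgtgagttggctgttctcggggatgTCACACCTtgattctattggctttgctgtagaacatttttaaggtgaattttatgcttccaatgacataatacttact

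The Tbx15 +136.8 kb stretch held the T-box letters at 2 places, the only member OCR of the 194 with a match in its central 300 bases (0.515% against 1.29% of the 82930 shared autosomal OCRs). HOX letters were in 19 of 194 member OCRs (9.79% against 4.86% of all shared OCRs), SOX letters in 27 (13.9% against 13.1%), AP-1 letters in 27 (13.9% against 10.8%), PITX letters in 19 (9.79% against 8.26%), TCF/LEF letters in 8 (4.12% against 4.11%) and RUNX letters in 34 (17.5% against 20%). The 194 include OCRs that are not shared, so these are unlike sets. Among the 68 shared member OCRs alone, RUNX letters were in 7 (10.3%), PITX letters in 8 (11.8%) and T-box letters in 0. HOX letters were in 6 of them (8.82%), SOX letters in 11 (16.2%), AP-1 letters in 9 (13.2%) and TCF/LEF letters in 3 (4.41%). These shares count letters only, overlaps between motifs were allowed, and none of the differences was tested.

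Promoter sequences were held in the RefSeq table for 2 of the 7 genes, Tbx4 and Tbx18. They are shown from the base 250 before the start to the base before it, on the gene's own strand (GRCm38.p6), with CG pairs in capitals, because their CpG content differs.
Tbx4, plus strand, chr11:85896515-85896764: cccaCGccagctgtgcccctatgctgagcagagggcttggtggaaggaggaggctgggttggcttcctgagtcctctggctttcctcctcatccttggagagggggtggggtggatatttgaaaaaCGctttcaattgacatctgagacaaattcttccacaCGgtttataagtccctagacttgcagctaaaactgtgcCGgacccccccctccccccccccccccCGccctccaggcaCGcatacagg
Tbx18, minus strand, chr9:87731261-87731510: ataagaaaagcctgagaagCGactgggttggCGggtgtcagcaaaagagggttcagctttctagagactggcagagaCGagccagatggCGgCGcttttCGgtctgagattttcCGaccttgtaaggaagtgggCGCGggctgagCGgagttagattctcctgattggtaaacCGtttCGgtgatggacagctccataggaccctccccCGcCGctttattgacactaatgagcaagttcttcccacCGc
Over the full promoters of the table, including the 50 bases after the start, the observed over expected CpG ratio was 0.314 for Tbx4 and 0.755 for Tbx18, at the 43.0 and 74.9 percentiles of 31396 autosomal promoters. The Tbx4 start shown is one of 3 annotated starts of that gene.

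The summed level of the shared OCRs in each window of a gene and its 50 kb flanks stayed within 1.5-fold between any 2 stages for all 7 genes. In such sums over nuclei, fewer nuclei with an open OCR and a lower level in each cannot be told apart. By that fold 0 of 7 were higher and 0 lower in each pair. Among 18326 autosomal protein-coding windows, 1.69% were higher and 4.8% lower by that fold at E14.5 than at E12.5. At E16.5, 3.81% were higher and 1.88% lower than at E14.5, and 3.8% higher and 5.71% lower than at E12.5. The counts of the 7 genes depended on the way of counting. Per kb of called width, 2 were higher at E14.5 than at E12.5 and 6 lower at E16.5 than at E14.5. Over every called peak, 2 were lower at E14.5 than at E12.5. No shares over all windows are given for these 2 settings.

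The forelimb gene Tbx5 had a window level of 257 CPM (interval 252 to 263), 313 CPM (309 to 316) and 254 CPM (252 to 257) in stage order. The middle stage was the highest, 1.22-fold above E12.5, and the outer stages overlapped in their intervals. The difference from E12.5 to E14.5 kept its direction under all 10 alternative ways of counting, that from E14.5 to E16.5 turned under 1 (0.17 over matched peaks) and that from E12.5 to E16.5 under 6.

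Tbx4, the hindlimb T-box gene next to Tbx2 on chromosome 11, went the other way, with 219, 147 and 167 CPM. Its ratio of E14.5 to E12.5 was 0.67, just inside the 1.5-fold limit, with the direction turned when divided by called width (log2 ratio 0.47), and only 4.95% of all gene windows had a lower one. From E12.5 to E16.5 it was lower by 0.39 on the log2 scale (log2 ratio -0.39, interval -0.42 to -0.35), in the same direction under all 10 alternatives. When each OCR was counted only for its nearest member, Tbx4 passed the limit in both pairs that include E12.5.

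Pitx1 had the lowest window level of the 7 genes at every stage, with 73.1, 58.2 and 68.4 CPM. It also had the fewest shared OCRs, 5 of the 68, and its gene body of 11.1 kb is the second shortest. Its windows stood at the 29.2, 20.7 and 26.9 percentiles of all genes, while those of Tbx5 stood at 89.9, 93.6 and 89.0.

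The repressor genes Tbx2 and Tbx3 were both lowest at E14.5. Tbx2 had 217, 160 and 178 CPM in stage order, and Tbx3 had 203, 153 and 192. Since the Tbx2 and Tbx4 genes lie 44474 bp apart, 6 shared OCRs count in both of their windows.

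Tbx15 had 270, 241 and 284 CPM, the highest window of the 7 at E12.5 and at E16.5. Its gene body of 114 kb is the longest of the 7, so its window is also the widest. These sums were not divided by window length. Tbx18 had 138, 167 and 140 CPM and, like Tbx5, was highest at E14.5. The Tbx18 window was higher at E14.5 than at E12.5 and lower at E16.5 than at E14.5 under all 10 alternatives.

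**Figure D1:**
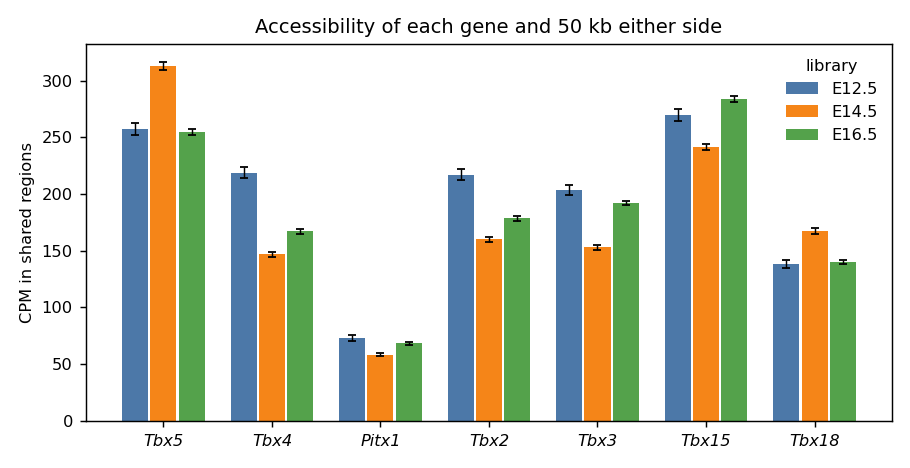
Summed accessibility of shared OCRs (y axis, CPM) over each gene and 50 kb on either side (x axis), with 1 bar per library and counting intervals as error bars. Tbx5 and Tbx18 were highest at E14.5, while Tbx4, Pitx1, Tbx2, Tbx3 and Tbx15 were lowest there, an order that turned for these 5 per kb of called width.

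Over the 7 windows the median log2 ratio was -0.33 at E14.5 against E12.5, 0.19 at E16.5 against E14.5 and -0.08 at E16.5 against E12.5, beside medians of 0.11, -0.11 and -0.0013 over all gene windows. Called width differed with these values: the shared OCRs of the Tbx4 window covered 31972, 15444 and 29849 bp in stage order, and those of the Tbx5 window 40637, 33200 and 43457 bp. Divided by width, the median of the first pair turned to 0.49 and that of the second to -0.69, so the order of E14.5 against the other stages depends on whether width is counted. The part of peak calling in these ratios was not tested.

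The comparison of the forelimb gene with the hindlimb genes was made at the promoter peaks. Per kb of called width Tbx5 did not stand clear of Pitx1: its promoter had 5.78, 8.40 and 5.35 CPM per kb, against 6.77, 9.91 and 4.55 for Pitx1. Tbx5 was thus 0.853 and 0.848 times Pitx1 at the first 2 stages and 1.18 times at E16.5. Against Tbx4, with 4.58, 7.66 and 3.07 CPM per kb, the ratios were 1.26, 1.1 and 1.74. All 6 counting intervals left out a ratio of 1. The ratios to Pitx1 depend on which peaks are counted. At E14.5 the promoter OCRs of Tbx5 and Pitx1 were split into several peaks, of which those values take only the ones at a start site. Over all peaks of the merged promoter OCRs, Tbx5 had 8.61 and Pitx1 8.41 CPM per kb at E14.5, a ratio of 1.02 whose interval on the log2 scale (-0.027 to 0.096) holds 0. The ratios at the other stages were unchanged by this, and that to Tbx4 at E14.5 was 0.26 on the log2 scale in place of 0.13. With Pitx1 read instead at the OCR over its annotated gene start, Tbx5 was 1.09, 1.21 and 1.43 times Pitx1, and the log2 interval of the first (-0.0082 to 0.27) holds 0.

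With width counted, the order was another. The Tbx5 promoter peak spanned 20759, 12896 and 20322 bp in stage order, at the 99.98, 99.99 and 99.96 percentiles of promoter width. Promoter peaks of Tbx4 covered 8325, 1336 and 8430 bp, and that of Pitx1 4252, 1898 and 5157 bp. In whole peaks, Tbx5 held 120, 108 and 109 CPM, against 38.2, 10.2 and 25.9 for Tbx4 and 28.8, 18.8 and 23.5 for Pitx1. Each Tbx5 value was above every Tbx4 and Pitx1 value, and the log2 difference without division by width lay between 1.65 and 3.40 against Tbx4 and between 2.06 and 2.53 against Pitx1. Over the merged OCRs the E14.5 values were 141 CPM at Tbx5 and 24.3 at Pitx1, which made E14.5 the highest stage of Tbx5. Promoter peaks of all genes held 38.8%, 50.9% and 36.7% of the counts of the libraries in stage order. The median gene with a promoter peak had 13.9, 21.4 and 12.5 CPM per kb. The part of this library-wide excess at E14.5 in the promoter levels given here and below was not tested.

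Counted by nuclei, Tbx5 was again above both hindlimb genes. With each nucleus thinned to 1309 fragments, 9.68%, 11.8% and 9.53% of nuclei had a fragment at the Tbx5 promoter. The shares were 3.41%, 1.34% and 2.33% at Tbx4 and 2.15%, 2.15% and 2.52% at Pitx1. At E16.5 the intervals of Tbx4 (2.08% to 2.59%) and Pitx1 (2.26% to 2.79%) overlapped, so their order there is not resolved. Unthinned, Tbx4 was above Pitx1 at E16.5 (23.8% against 21.7%), as by whole peaks. Over the merged OCRs the E14.5 shares were 14.9% at Tbx5 and 2.73% at Pitx1. At E12.5 and E16.5 the merged OCRs of these genes are the start-site peaks themselves. A second random thinning of those peaks gave 10.1% and 9.98% at Tbx5 and 2.27% and 2.46% at Pitx1. Without thinning, the shares at the start-site peaks of Tbx5 were 26%, 35.7% and 58.6%, in the order of the libraries' depth. Thinning left out 25% of E12.5 nuclei and at most 2.51% at the other stages. A wider peak offers more places for a fragment, so these shares carry the width as well.

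**Figure D2:**
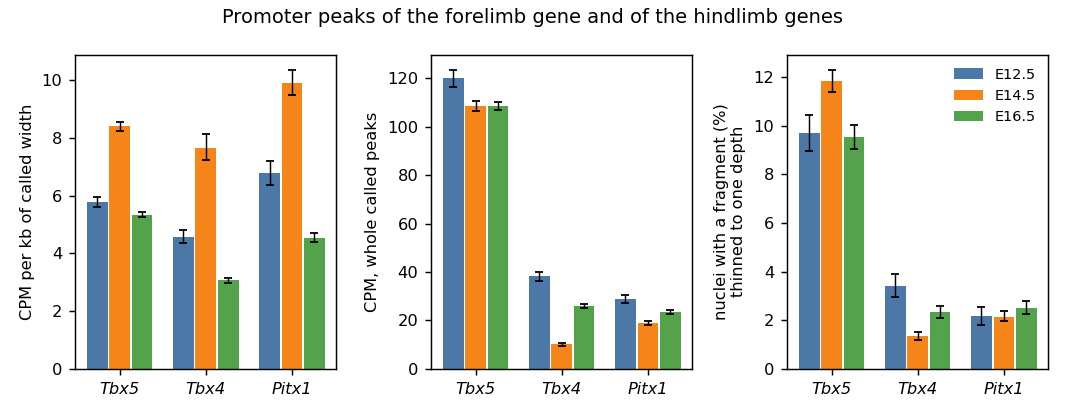
Peaks at the start sites of Tbx5, Tbx4 and Pitx1 (x axis) as CPM per kb of called width, as CPM over whole peaks and as percent of thinned nuclei with a fragment (y axes), with 1 bar per library and counting intervals. Tbx5 exceeds both hindlimb genes in the CPM and percent panels, from 108 CPM and 9.53% upwards, and in the per-kb panel at E16.5, while over merged promoter OCRs, not drawn, it also exceeds Pitx1 at E14.5 (8.61 against 8.41 CPM per kb).

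Among the other 4 genes, Tbx3 had the highest promoter level per kb, with 12.3, 22.1 and 10.3 CPM per kb. Its thinned shares were 7.31%, 8.45% and 9.55%. The shares of Tbx15 were 6.72%, 8.82% and 10.3%. These shares count only the peaks at a start site, and in the first 2 libraries both promoters were split into several peaks. Over all peaks of the merged promoter OCR, the shares were 7.59%, 8.94% and 8.87% at Tbx3 and 9.08%, 12.3% and 9.74% at Tbx15. At E16.5 both merged OCRs are the start-site peaks themselves, so the shares there differ only by a second random thinning. For Tbx15, the merged E14.5 share was above both E16.5 draws. For Tbx3 it lay between them (8.87% and 9.55%), so its order with E16.5 is not resolved. The called width of the Tbx15 OCR was 12171, 10262 and 13903 bp. The Tbx18 promoter was highest at E14.5, in 8.53% of thinned nuclei against 5.08% and 6.13%. Tbx2 had 4.03%, 5.06% and 4.81%, the narrowest span of the 4.

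Single OCRs differed more than the windows did, here and over all genes. With no test, rise and fall below name the difference in level between the E12.5 and E16.5 libraries. Of the 68 shared member OCRs, 10 were higher and 31 lower by 1.5-fold at E14.5 than at E12.5 (all 82714 shared OCRs with counts: 17.6% higher, 33.7% lower). From E14.5 to E16.5, 22 were higher and 6 lower (all: 32.3% and 14.1%), and from E12.5 to E16.5, 16 were higher and 18 lower (all: 26.4% and 25.8%). Per kb of called width, 26 were higher and 4 lower in the first pair (all: 35.5% and 4.24%), 0 higher and 35 lower in the second (all: 2.35% and 46.7%), and 11 higher and 13 lower in the last (all: 14% and 24.2%), so the members moved with all shared OCRs when width was divided out. Called widths lay within 1.5-fold in all libraries for 16 member OCRs and 26470 of all shared OCRs. Of the 16, 5 were higher and 0 lower in the first pair (all: 16.7% and 9.63%), 0 higher and 4 lower in the second (all: 3.4% and 19.5%), and 5 higher and 2 lower in the last (all: 10.2% and 19.7%).

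**Figure D3:**
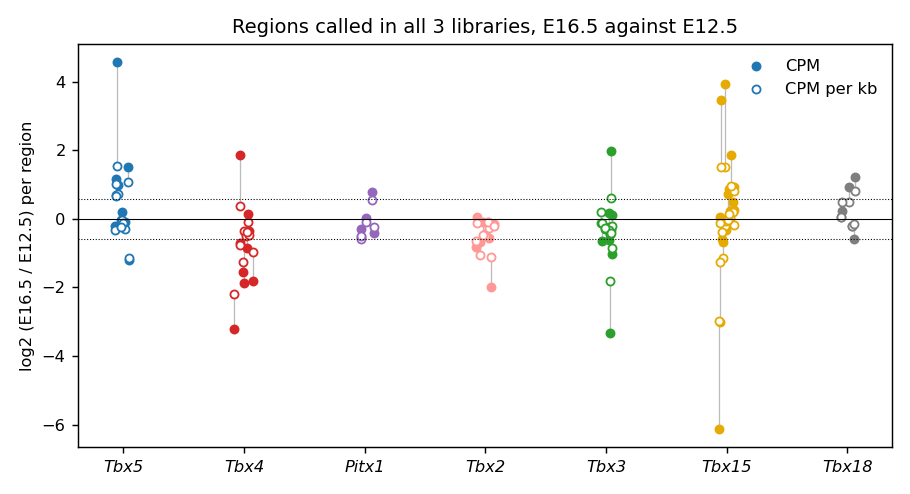
Log2 ratio of E16.5 to E12.5 (y axis) for each of the 68 shared OCRs by nearest gene (x axis), as CPM (filled) and CPM per kb of called width (open), with dotted lines at 1.5-fold. The largest filled values of Tbx5 (4.57), Tbx15 (3.93 and -6.12), Tbx4 (-3.21) and Tbx3 (-3.33) shrink towards 0 per kb but keep their sign.

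At Tbx5 the broad promoter OCR, chr5:119828399-119849435, which holds annotated starts of Tbx5 and of the non-coding gene Gm43050, had 120, 141 and 109 CPM. The OCR at -34.3 kb, chr5:119795638-119801141, went from 47.5 CPM (45.3 to 49.8) to 39.6 (38.4 to 40.9) to 20.7 (20 to 21.4). This was the largest fall at the locus, 0.435-fold from E12.5 to E16.5, and the called widths of 5504, 4694 and 5326 bp differed little. GENCODE has no gene in this OCR, while RefSeq places upstream starts of Tbx5 in it, at 119796514 and 119796647.

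The intronic OCR at +35 kb, chr5:119866179-119869101, whose centre is printed above, had 10.2 CPM (9.20 to 11.3), then 31.8 (30.7 to 32.9) and 29.1 (28.3 to 30.0). Both later libraries stood well above the first, 3.12-fold and 2.86-fold, and 1.34 and 1.08 on the log2 scale remained per kb. The intergenic OCR at -40.7 kb had 9.07, 16.3 and 18.1 CPM, in called widths of 1092, 1108 and 1312 bp.

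The OCR at +84.2 kb, chr5:119916306-119917501, had 20.2 CPM at E14.5 and 20.9 at E16.5 and no peak in the E12.5 list. An OCR outside a list has no count there, so its E12.5 level is unknown rather than 0. The OCR at +20.3 kb, chosen as the largest rise at the locus, had 0.203, 1.26 and 4.82 CPM, but its called width went from 126 to 259 to 1028 bp and the log2 ratio of 4.57 fell to 1.54 per kb. The OCR with the highest mean level over the libraries apart from the promoter, at -27.2 kb over the start of 1700021F13Rik, had 46.4, 59.3 and 43.8 CPM.

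**Figure D4:**
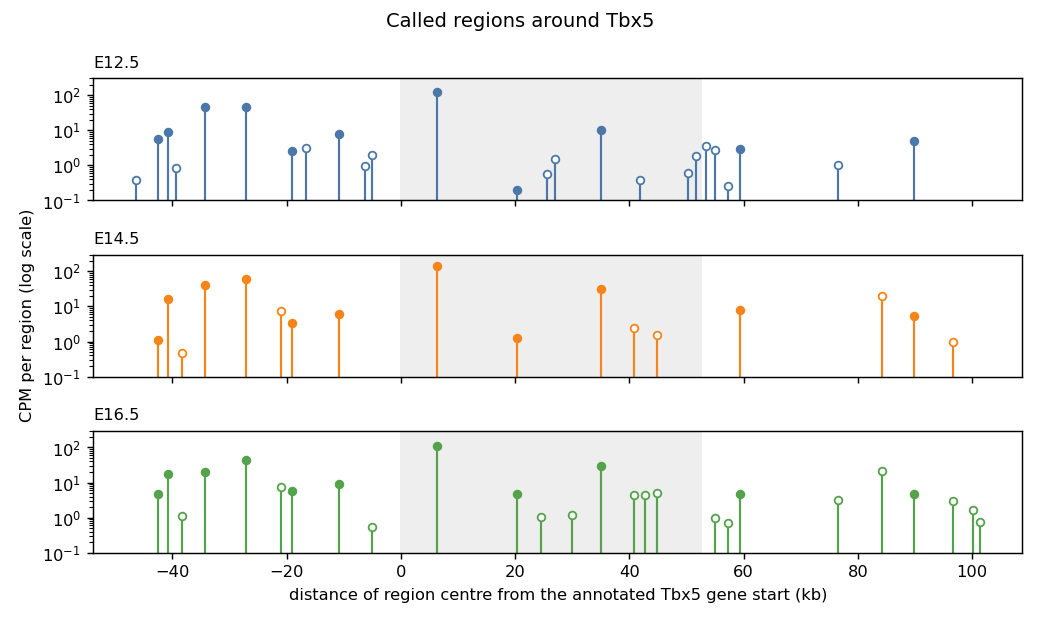
CPM of each called OCR (y axis, log scale) against the distance of its centre from the annotated Tbx5 gene start (x axis, kb) in the 3 libraries. Filled points are shared OCRs, open points are called in some libraries only, and grey marks the gene; the OCR at +84.2 kb (20.2 and 20.9 CPM) is missing from the first panel.

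At Tbx4, 8 of 10 nearest shared OCRs were lower at E14.5 than at E12.5 (all shared OCRs: 33.7%) and 6 were lower at E16.5 (all: 25.8%). Per kb of called width, 0 of the 10 were lower and 2 higher at E14.5 (all: 4.24% and 35.5%), and 4 were lower at E16.5 (all: 24.2%). None of the 10 had called widths within 1.5-fold in all libraries. The largest fall was at +75.2 kb, chr11:85960930-85962328, with 10.1, 1.43 and 1.095 CPM in 1399, 250 and 688 bp, and a log2 ratio of -3.21, or -2.18 per kb. The OCRs over the 3 annotated starts differed among themselves. The first start had 7.17, 1.70 and 2.45 CPM, the second 15.4, 5.63 and 11.2 CPM (3.88, 5.53 and 2.77 per kb, so that its E14.5 level turned to the highest), and the last, whose sequence is printed above, 15.6, 15.6 and 12.2 CPM. The last had 5.12, 8.85 and 3.70 CPM per kb, so its equal CPM at E12.5 and E14.5 stood on a narrower peak at E14.5. The other shared OCR with the highest mean level over the libraries, at +39.2 kb, had 22.3, 13.7 and 12.5 CPM, although at E16.5 the one at +55.8 kb was higher, with 17.2 CPM, and the largest rise, at +69.3 kb, had 1.27, 1.87 and 4.60 CPM.

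At Pitx1 the promoter OCR, chr13:55827398-55832554, had 28.8, 24.3 and 23.5 CPM. The other shared OCR with the highest mean level, at -19.8 kb, chr13:55855288-55856741, went in the other direction, with 11.6 CPM (10.5 to 12.7), 16.1 (15.3 to 16.9) and 19.9 (19.2 to 20.6). It was also the largest rise, 1.72-fold in all and 0.55 on the log2 scale per kb. The largest fall was in the OCR that spans the annotated gene start, centred at -0.528 kb, with 12.8, 6.47 and 8.95 CPM (5.29, 7.14 and 3.73 per kb, so that its E14.5 level turned to the highest). It holds the GENCODE gene end at 55836192, where Pitx1 on the minus strand begins, the RefSeq start at 55836190 and a start of Gm28760. The promoter values of Pitx1 above use the start of the gene's basic transcript and leave this OCR out, and the ratios of Tbx5 to Pitx1 below 1 turned above 1 with it in their place.

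At Tbx2 the promoter OCR was the steadiest of the 7 genes, with 46.6, 48.6 and 48.2 CPM. Its highest other OCR, over the end of the gene at 8.03 kb, had 80.2, 72.5 and 75.4 CPM. Of the 9 shared OCRs nearest to Tbx2, 0 were higher by 1.5-fold at E14.5 or at E16.5 than at E12.5 (all: 17.6% and 26.4%), and per kb of called width the counts were again 0 (all: 35.5% and 14%). The largest fall was at -39.5 kb, with 8.50, 1.83 and 2.15 CPM.

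At Tbx3 the promoter OCR had 86.9, 79.2 and 94.7 CPM, and the OCR at +13.5 kb 35.3, 29.7 and 39.4 CPM. The OCR at -19.1 kb, in an intron of the antisense gene Tbx3os1, had 10.5, 1.56 and 1.04 CPM, while the one at -28.9 kb in the same gene had 2.13, 0.984 and 8.36 CPM. From E12.5 to E16.5 these neighbours thus differed in opposite directions, with log2 ratios of -3.33 and 1.97, or -1.82 and 0.60 per kb. The CPM of the OCR at -28.9 kb was lowest at E14.5, and its called width was 538, 232 and 1386 bp in stage order.

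Tbx15 had the most shared OCRs, 16, and the most E16.5 peaks, 47. Its promoter OCR had 104, 110 and 108 CPM, and the OCR at -0.333 kb, which holds the RefSeq start at 99240348, 45.9, 41.7 and 36.9 CPM. Within the gene, the OCR at +52.3 kb, chr3:99291865-99293419, had 0.662, 1.96 and 10.1 CPM, the largest rise, with 1.52 of its log2 ratio of 3.93 remaining per kb. Upstream, in the Wars2 gene, the OCR at -46.9 kb had 13.7, 23.6 and 26.2 CPM at widths of 1895, 1792 and 2074 bp. The largest fall was at -35.0 kb, over the start of Gm42717, with 9.61, 1.36 and 0.138 CPM, where the called width fell from 926 to 106 bp.

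At Tbx18 the promoter OCR had 55.2 CPM (52.9 to 57.7), 74.5 (72.8 to 76.3) and 64.7 (63.4 to 65.9), and all 3 intervals were separate. The next OCR, at -8.59 kb, had 51.9, 46.6 and 34.5 CPM and was the largest fall, while the largest rise, at 7.12 kb over an exon, had 2.70, 3.94 and 6.32 CPM. Of the 6 shared OCRs nearest to Tbx18, 0 were lower by 1.5-fold at E14.5 than at E12.5 (all: 33.7%), as were 0 per kb of called width (all: 4.24%).

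Whether the loci differed between MPs of different lineage was read in nuclei gated on other genes. In each library, the 5% of nuclei with the highest excess of fragments over the loci of a panel were set against the remaining nuclei. The panels were chondrogenic (such as Acan, Col2a1 and Sox9), tenogenic (Scx, Tnmd, Mkx), fibrogenic (Dpt, Pi16, Cd34), dermal fibrogenic (Twist2, Crabp1, Lef1) and pericyte loci (Rgs5, Kcnj8, Abcc9). No panel OCR was a member OCR. Nuclei are not replicates, so the differences are descriptions of these libraries. The chondrogenic gate at E16.5 held 703 nuclei with a median of 12031 fragments against 13893 in the others, and 41.4% against 36.2% of fragments at promoters. The dermal fibrogenic gate had 18835 against 13422 fragments, and 36.6% against 36.4% at promoters, and the part of depth in the values below was not tested.

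Over whole windows the gates differed little. All 105 values of 7 genes, 5 gates and 3 stages lay between -0.49 and 0.44 on the log2 scale. The lowest was Pitx1 in the E16.5 tenogenic gate (-0.49, interval -0.63 to -0.36), at the 3.53 percentile of all gene windows. In the E12.5 dermal fibrogenic gate Tbx15 (0.38) and Tbx2 (0.35) were the highest, at the 98.3 and 97.8 percentiles. In the E12.5 pericyte gate Tbx5 and Tbx3 were the lowest (-0.34 and -0.33), at the 4.44 and 4.55 percentiles, and Pitx1 the highest (0.34, interval 0.087 to 0.59), at the 96.6 percentile. That gate had a median of 2377 fragments against 3097 in the other nuclei. In the pericyte gates of E14.5 and E16.5 these genes lay between -0.064 and 0.070. In the E16.5 chondrogenic gate the hindlimb gene Tbx4 had the highest value, 0.42 (0.35 to 0.49), at the 90.8 percentile of all gene windows, and Tbx15 and Tbx18 the lowest, -0.30 and -0.27. In the E16.5 dermal fibrogenic gate Tbx18 and Tbx15 were instead the highest, at 0.44 (0.37 to 0.51) and 0.38 (0.33 to 0.43), the 95 and 93.5 percentiles. Tbx5 was at 0.17 in the first gate and 0.09 in the second. At E14.5 the order was another: Tbx3 was highest in the chondrogenic gate (0.40), above Tbx4 (0.25), and Pitx1 in the dermal fibrogenic gate (0.39), where Tbx18 and Tbx15 were at 0.08 and 0.05.

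Single OCRs again differed more than the windows. In the E16.5 chondrogenic gate 15 of 156 member OCRs had a counting interval wholly above 1.5-fold (9.62%, against 7.66% of all called OCRs), and in the dermal fibrogenic gate 31 of 157 did (19.7% against 12.5%). Of the 31, 17 were nearest to Tbx15, 7 to Tbx18, 6 to Tbx5 and 1 to Pitx1, and of the 15, 5 each to Tbx4 and Tbx15, 2 each to Tbx5 and Pitx1 and 1 to Tbx2. No OCR nearest to Tbx3 was in either set.

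The Tbx5 OCRs printed above differed between the gates, and the highest Tbx5 value in the E16.5 chondrogenic gate was at +100.1 kb, called at E16.5 alone (log2 difference 3.75, interval 3.41 to 4.09, with 1.66 CPM in the library). The +84.2 kb OCR had 58.1 fragments per 1000000 in the E16.5 chondrogenic gate against 18.9 in the other nuclei, a log2 difference of 1.62 (1.47 to 1.76), and 5.04 against 21.7 in the dermal fibrogenic gate, a difference of -2.11 (-2.53 to -1.72). At E14.5 the same OCR had differences of 0.93 and -0.999. The +20.3 kb OCR had the reverse, -1.70 (-2.66 to -0.89) and 2.60 (2.38 to 2.82) at E16.5, and -2.36 (2 fragments in the gate) and 1.77 at E14.5. The +35 kb OCR was less one-sided at E16.5, 0.39 and -0.68, and the Tbx5 promoter OCR stayed at 0.33 and 0.07.

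At Tbx15 the +136.8 kb OCR, which holds the T-box letters, had 24.5 fragments per 1000000 in the E16.5 chondrogenic gate against 1.28 in the other nuclei (log2 difference 4.26, interval 3.97 to 4.55), and -1.35 in the dermal fibrogenic gate. The gate, 5% of the nuclei, held 189 of its 395 fragments. The +52.3 kb OCR had -0.93 and 1.63 in the same gates, and that at +85.7 kb -2.52 and 2.49. The Tbx15 promoter OCR was at 0.07 and 0.10.

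At Tbx18 the OCR at -37.6 kb had 26 fragments per 1000000 in the E16.5 dermal fibrogenic gate against 3.78, a difference of 2.78 (2.57 to 2.99), and was at -3.05 in the chondrogenic gate, with 5 fragments. At E14.5 it was at 1.70 in the dermal fibrogenic gate. At Pitx1 the -19.8 kb OCR was low in the chondrogenic gate at both stages, -1.45 in the E14.5 library (-1.98 to -0.97) and -1.75 (-2.19 to -1.33) in the E16.5 library, and at 0.71 and 0.51 in the dermal fibrogenic gate. Another Pitx1 OCR, at +25 kb and called at E16.5 alone, was at 3.15 in the chondrogenic gate. At Tbx4 the highest value in the E16.5 chondrogenic gate was 2.77, at +62.7 kb and called at E16.5 alone, and the OCR at the end of the gene, at +30.8 kb, was at 1.62 and 1.77 in the chondrogenic gates of E14.5 and E16.5.

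The promoter OCRs of all 7 genes, 9 in number, lay between -0.40 and 0.58 in the E16.5 chondrogenic gate and between -0.35 and 0.40 in the dermal fibrogenic gate. Over all shared OCRs the middle 90% of values ran from -2.12 to 1.41 and from -2.08 to 1.56 in these gates, a range that takes in promoters and distal OCRs alike. Among the shared distal OCRs whose gate values are given above, those at Tbx5 +20.3 kb and Tbx15 +52.3 kb lay above this range in the dermal fibrogenic gate. The Tbx4 +30.8 kb OCR (1.77) lay above it in the chondrogenic gate. A shared OCR nearest to Tbx2, not named above, also did so, at 1.48. Other OCRs named above, such as Tbx5 +84.2 kb and Tbx18 -37.6 kb, are not shared, so this range does not cover their kind. In the E16.5 tenogenic gate the Tbx5 +20.3 kb OCR was at -1.72 and the Tbx18 -37.6 kb OCR at -2.25. The Tbx15 +52.3 kb OCR was at -1.04 and the Pitx1 -19.8 kb OCR at -1.003 there, so values below 0 were not particular to the chondrogenic gate. The Tbx5 +84.2 kb OCR had 294 of its 3492 fragments in the tenogenic gate, which held 5% of nuclei, and 448 in the chondrogenic gate. Its excess was thus not particular to the chondrogenic gate either. Nuclei of the tenogenic gate were deeper than the others (medians 15687 and 13640 fragments). Values at low counts scatter more, and the OCRs given in the gates were chosen after their values were seen.

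**Figure D5:**
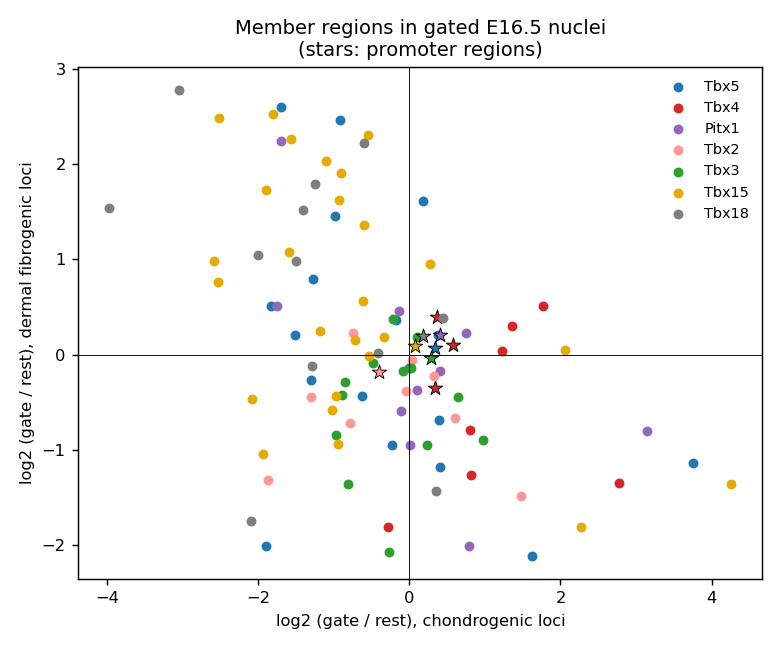
Log2 difference between gated and remaining E16.5 nuclei for 104 member OCRs with at least 300 fragments, for chondrogenic loci (x axis) against dermal fibrogenic loci (y axis), coloured by nearest gene, with stars for promoter OCRs. Stars lie near 0 while distal OCRs reach 4.26 on the x axis and 2.78 on the y axis.

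In the 31 OCRs high in the dermal fibrogenic gate, SOX letters stood in 9 (29.0%), RUNX in 6 (19.4%), HOX in 5 (16.1%), AP-1 in 3 (9.68%), PITX and TCF/LEF in 2 each (6.45%) and T-box letters in 0. In the 15 high in the chondrogenic gate, RUNX letters stood in 5 (33.3%), AP-1 in 3 (20%), SOX, HOX, PITX and T-box letters in 1 each (6.67%) and TCF/LEF in 0. The shares over all shared OCRs were 13.1% for SOX, 20% for RUNX, 4.86% for HOX, 10.8% for AP-1, 8.26% for PITX, 4.11% for TCF/LEF and 1.29% for T-box letters. Both gate sets also hold OCRs that are not shared, unlike the set of all shared OCRs. These are descriptions of small sets with no test.

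Other genes of the same programmes were read over the same windows. In the T-box family, 10 of 11 genes had an autosomal value. The one past 1.5-fold was T, the mesodermal founder of the family, with 115, 63.4 and 51.9 CPM. Thus 1 of 10 was lower at E14.5 than at E12.5 (all windows 4.8%) and 1 of 10 at E16.5 than at E12.5 (all windows 5.71%). Tbx10 and Tbx19 had no promoter peak in any library. Of 6 hindlimb genes, 1 was lower at E14.5 than at E12.5 (Hoxc11, log2 ratio -0.65; all windows 4.8%), and 3, Hoxc9, Hoxc10 and Hoxc11, were higher at E16.5 than at E14.5, with log2 ratios of 0.79, 0.75 and 0.88 (all windows 3.81%). Of 8 genes of the forelimb and of limb initiation, Hoxc5 and Hoxb5 were higher in that last pair, with log2 ratios of 0.77 and 0.86, and none was lower in any pair. Windows of the Hoxc genes overlap, so they share OCRs, and these ratios were not divided by called width, which turned the median of the 7 genes in the same pair. All 6 hindlimb and all 8 forelimb genes had a called promoter in every library, as did 72.7%, 68.8% and 74.1% of all 20780 genes in stage order.

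Of the 194 member OCRs, 68 (35.1%) were shared, against 31.8% of all autosomal OCRs. Those found in only the E12.5, E14.5 or E16.5 list were 29, 3 and 42, or 14.9%, 1.55% and 21.6% against 19.5%, 0.257% and 27.4% of all. A further 39 (20.1% against 17.2%) were called at E12.5 and E16.5 but not at E14.5, which had the fewest peaks of the 3, 11 (5.67% against 2.82%) at the later 2 stages and 2 (1.03% against 1.01%) at the earlier 2.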

How the data were processed

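Single-nucleus ATAC-seq libraries, 1 per stage, were used as deposited: for each, a peak list, barcodes and a matrix of counts. Per the labels and the study's methods, the authors converted the runs with bcl2fastq and made these counts with Cell Ranger ATAC 1.1.0 on mm10, while the file headers name version 1.0.1 for E12.5 and E14.5 and 1.2.0 for E16.5. The deposited counts are raw cut sites per peak and nucleus, not normalised, with peaks called in each library separately. A peak present in 1 list has no count in the others, and peak width moves with the calling.

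Peaks overlapping by at least 1 bp were merged into regions with bedtools 2.31.1, and shared autosomal regions set the scale (CPM). Gene positions came from GENCODE vM21, with windows of 50 kb either side and promoter peaks from 1000 bp before to 100 bp after a basic transcript start. Fragments were taken as cut sites divided by 2, rounded up. Intervals were exact Poisson for levels, conditional binomial for ratios and Clopper-Pearson for shares, at 95%, for counting error only. No p-value was computed, and a difference was counted past 1.5-fold. Nuclei were not filtered further, doublets were not called, and barcodes common to libraries were kept. The ratio and interval scripts were tested on simulated data. Python 3.11.15, NumPy 2.4.6, pandas 2.3.3, SciPy 1.17.1 and matplotlib 3.10.9 were used.

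For each gene the promoter region, the highest other shared region and the largest rise and fall from E12.5 to E16.5 were named. Other regions were named after their values were seen. The 7 genes and all lists were chosen with earlier results of these data known. Alternatives changed the scaling, peaks, width, windows and nuclei.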

Additional observations from a re-analysis of the deposited data

Results flagged for a closer look

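Outside the shared OCRs, on which the stage comparisons rest, 12 OCRs of these loci reached at least 5 CPM in a library while another library had no peak there. The highest was the Tbx5 OCR at 84.2 kb, with 20.9 CPM, called at E14.5 and E16.5, as were those at -21.0 kb (7.62 CPM) and 44.8 kb (5.11 CPM). At Tbx15 the OCR at -36.9 kb reached 17.5 CPM and was called at the same stages, those at 85.7 kb (5.57 CPM) and 96.7 kb (8.08 CPM) were called at E12.5 and E16.5, and that at 94.7 kb (7.48 CPM) at E16.5 alone. At Tbx18 the OCRs at -49.8 kb (15.2 CPM) and -15.4 kb (7.42 CPM) were called at E12.5 and E14.5, that at -37.6 kb (5.02 CPM) at E14.5 and E16.5, and that at 43.7 kb (6.42 CPM) at E12.5 and E16.5. The Pitx1 OCR at 61.1 kb reached 5.03 CPM and was called at E12.5 and E16.5. Their levels in the libraries without a peak are unknown, and the differences were not tested.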

How the results depend on the processing

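Leaving out a replicate was not possible with 1 library per stage. No paired analysis was possible because each group holds 1 sample and no result comes from a test. Depth limits single OCRs in gates, where a named value rests on as few as 2 fragments in the gate.

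The median log2 ratio over the 7 windows at E14.5 against E12.5 (-0.33) was -0.15 scaled to all counts, -0.43 scaled to the median ratio, -0.49 over every called peak, -0.037 over matched peaks, 0.49 per kb of called width, -0.21 both for binarised counts and for windows of 10 kb, -0.17 over gene bodies with 2 kb upstream and -0.18 without the deepest nuclei. At E16.5 against E14.5 (0.19) it was, in the same order of settings, -0.068, 0.30, 0.27, 0.26, -0.69, 0.041 and 0.14, and 0.23 with each peak given to its nearest gene. At E16.5 against E12.5 (-0.08) it was -0.16 scaled to all counts, 0.075 over matched peaks, -0.18 per kb, -0.029 binarised, 0.045 over gene bodies and 0.051 without the deepest nuclei. Genes lower at E14.5 than at E12.5 went from 0 to 1 with the median ratio, matched peaks, 10 kb, gene bodies or nearest genes, and to 2 over every peak. Per kb, 2 were higher there and 6 lower at E16.5 than at E14.5. At E16.5 against E12.5, 1 was higher over matched peaks and 1 lower with 10 kb, gene bodies or nearest genes.

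The log2 ratio of Tbx5 to Tbx4 promoters (0.33, 0.13 and 0.80 in stage order) was 1.65, 3.40 and 2.07 without division by width, 1.51, 3.14 and 2.03 as shares of thinned nuclei, and 0.23, 1.09 and 0.61 over whole windows. That of Tbx5 to Pitx1 (-0.23, -0.24 and 0.23) was 2.06, 2.53 and 2.21, then 2.17, 2.46 and 1.92, then 1.82, 2.43 and 1.90, so it turned at E12.5 and E14.5, and it was -0.073 at E12.5 without the deepest nuclei. In 2 alternatives chosen after seeing the data, the merged promoter OCRs gave 0.26 against Tbx4 and 0.034 against Pitx1 at E14.5 and no other change, and with Pitx1 read at its annotated gene start they gave 0.13, 0.27 and 0.52 against Pitx1. Of shared OCRs, 26 were higher and 4 lower at E14.5 than at E12.5 per kb (all OCRs 35.5% and 4.24%), and 5 and 0 among those of like width (16.7% and 9.63%). At E16.5 against E14.5, 0 were higher and 35 lower per kb (2.35% and 46.7%), and 0 and 4 at like width (3.4% and 19.5%), and at E16.5 against E12.5, 5 were higher and 2 lower at like width (10.2% and 19.7%). In the E12.5 dermal fibrogenic gate without the deepest nuclei, the Tbx4 OCR at 3.52 kb turned to -0.043 and the Tbx18 OCR at -49.8 kb to -0.21. Division by width changes the value by its own construction, and for the other settings the cause was not tested. Of 1543 alternative values of OCRs in gates, these 2 turned and left their intervals. A further 37 moved beyond their intervals, as did 23 of 315 for windows in gates and 163 of 210 for window ratios between stages. Among the 1065 alternative values of OCRs in the E14.5 and E16.5 gates, 2 changed sign from a main value past 1.5-fold but stayed within their counting intervals.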
